A study of Mus musculus with 4 samples.

Results

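A set of 10 genes of pericellular proteolysis is described here. They are the tissue inhibitors of metalloproteinases *Timp1*, *Timp2*, *Timp3* and *Timp4*, the membrane-anchored inhibitor *Reck*, the secreted gelatinases *Mmp2* and *Mmp9*, the membrane-type enzymes *Mmp14* and *Mmp15*, and *Bsg*. All 10 have at least 1 probe on the arrays, 12 probes in all, out of 20832 genes that carried a probe with a RefSeq match, and 9 of the 10 were among the 11963 genes with both replicates of at least 1 population well above background. The genes were chosen by their known role, with the Met-high against Met-low signals of these same arrays already seen. Their differences between the populations are therefore given as a description, without a test. The cells are B16-F10, a mouse melanoma line, kept in medium with serum and sorted by cell-surface Met, the receptor of hepatocyte growth factor, into Met-low and Met-high populations. Sorted cells were cultured for 3 days, and total RNA of 2 Met-low and 2 Met-high samples was hybridised to 1-colour Agilent arrays. Both populations come from 1 unmodified cell line grown in dishes, without the stroma of a tumour.

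Matrix metalloproteinases are zinc-dependent enzymes that are made as inactive precursors and cut collagens, laminins and many cell-surface proteins once activated. The TIMP proteins bind the active site of these enzymes and block it. TIMP3 stays bound to the extracellular matrix and also inhibits several ADAM and ADAMTS proteases, and TIMP2 takes part, with MMP14, in the activation of the MMP2 precursor at the cell surface. In melanoma these enzymes are known for their part in invasion through basement membrane and in vessel growth, and the inhibitors have, beside enzyme inhibition, effects on cell survival through receptors.

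The 75th percentile of intensity lay between 858.4 and 1331 on the 4 arrays, and at most 53.6% of 43020 spots were well above background, with 0 saturated. With 2 arrays a population, the precision of every value is limited, and the Met-low and Met-high arrays lay at different positions of 1 slide, so that a position effect and a population effect cannot be told apart. *Met* itself had log2 signals, relative to the 75th percentile of the same array, of -0.26 and -0.89 in Met-low and of 1.04 and -0.43 in Met-high cells, so Met-high replicate 2 lay among the Met-low arrays, and the ratios of the 9 genes are also given without it. The melanocyte markers *Dct*, *Tyrp1*, *Tyr*, *Pmel*, *Mlana*, *Mitf* and *Sox10* were well above background on all arrays, and their summed signal, relative to the 75th percentile, was 1385 to 1691 in Met-low and 1493 to 1698 in Met-high cells. Among the marker genes of other cell types, 3 of 5 leukocyte genes with a probe (*Csf1r*, *Itgam* and *Cd3e*), 1 of 5 endothelial genes (*Kdr*), 1 of 5 fibroblast genes (*Col1a2*) and 0 of 5 keratinocyte genes were well above background on all arrays, while *Adgre1*, *Pecam1*, *Col1a1*, *Krt5*, *Krt14* and *Krt10* were so on some arrays, and *Ptprc*, *Cdh5*, *Tek*, *Emcn*, *Pdgfra*, *Dcn*, *Lum*, *Krt1* and *Epcam* were so on 0 arrays. The summed fibroblast signal was 0.62 and 0.676 in Met-low and 0.298 and 0.312 in Met-high cells. This difference had the direction of *Timp3*, *Timp4*, *Mmp2*, *Mmp14* and *Mmp15* below and the reverse of that of *Timp1*, *Timp2*, *Reck* and *Bsg*. The summed signal of leukocyte genes was 5.24 to 6.61 over the 4 arrays, and that of keratinocyte genes 0.114 to 0.219. For endothelial genes it was 6.32 and 5.49 in Met-low and 8.45 and 6.73 in Met-high cells. The part of these signals in the results was not tested.

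The largest difference within the family was that of *Timp4* (NM_080639), an inhibitor with narrow tissue expression. Its processed intensity was 3695 and 4435 in the Met-low replicates, against 85.2 and 114.8 in the Met-high replicates, well above background on all of them. Met-low cells thus had a high and reproducible signal and Met-high cells a dim one, without overlap. The dimmest probes well above background on the Met-high arrays were at 27.6 and 29.3. On the log2 scale relative to the 75th percentile, *Timp4* was at 1.85 ± 0.17 in Met-low cells against -3.30 ± 0.04 in Met-high cells (SD, n = 2 each), and the log2 ratio (Met-high minus Met-low) was -5.16 with a standard error of 0.17, which is 35.7-fold. A lower signal of a bulk sample does not tell fewer expressing cells from less RNA per cell, here and in the values that follow. After a normexp background correction, which compresses dim signals, the log2 ratio of *Timp4* was -4.25.

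*Timp3* (NM_011595), the matrix-bound inhibitor, had the next largest difference in the same direction. Its intensity was 1452 and 1918 in the Met-low replicates, against 191.7 and 254.1 in the Met-high replicates. The spread within each population was small against the gap between them, with a log2 signal of 0.58 ± 0.07 in Met-low cells against -2.15 ± 0.02 in Met-high cells (SD, n = 2 each). The log2 ratio of *Timp3* was -2.72 (standard error 0.15), or 6.59-fold. It was -2.37 with normexp and -2.87 with the 75th percentile taken over probes detected on all arrays, both shifts beyond the SD of the replicates.

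*Timp1* (NM_001044384), a secreted inhibitor that many cells induce in response to growth factors and cytokines, differed in the opposite direction. Its intensity was 245.7 and 649.9 in the Met-low replicates, against 1489 and 2312 in the Met-high replicates. Both Met-high arrays were above both Met-low arrays, and the Met-low arrays differed from each other by more than for the 2 preceding genes. The log2 signal was -1.49 ± 0.64 in Met-low cells against 0.93 ± 0.19 in Met-high cells (SD, n = 2 each), and the log2 ratio was 2.41 (standard error 0.33), or 5.32-fold. It was 1.96 without Met-low replicate 1 and 2.86 without Met-low replicate 2, which means a higher signal in Met-high cells with either array alone.

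*Timp2* (NM_011594), which inhibits MMP2 and also helps to activate it, was bright in both populations. Its dimmer probe gave intensities of 5923 and 8519 in the Met-low replicates, against 5895 and 8543 in the Met-high replicates, nearly the same values before scaling. After scaling its log2 signal was 2.66 ± 0.02 in Met-low cells against 2.86 ± 0.11 in Met-high cells (SD, n = 2 each), and the log2 ratio was 0.20, where the median over all genes was 0.10. The brighter probe, at intensities of 28089 and 24910 in Met-low and 25065 and 21689 in Met-high cells, was flagged as an outlier on Met-low replicate 1, so its log2 ratio of 0.35 (standard error 0.32) rests on 1 Met-low array. With the flagged spot kept, that ratio was 0.02. On neither probe did the means of *Timp2* differ by more than 1.28-fold. On its brighter probe the log2 ratio became 0.64 on leaving out Met-high replicate 2.

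**Figure D1:**
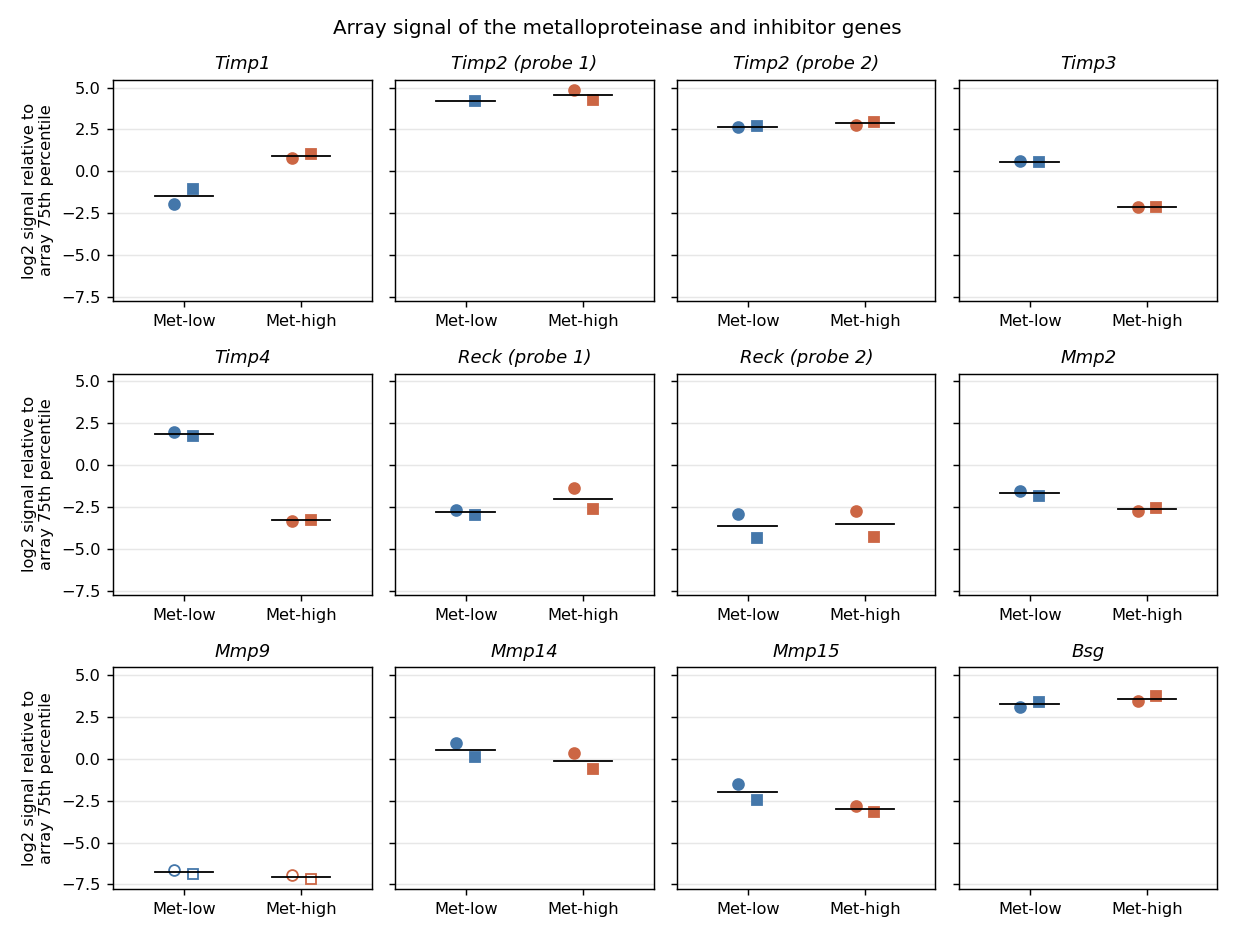
Log2 signal over the 75th percentile of its array (vertical axis) of each probe of the 10 genes in Met-low (blue) and Met-high (orange) cells, with replicate 1 as a circle, replicate 2 as a square, the mean of the replicates as a line, open symbols where the probe was not well above background, and a flagged spot left out. *Timp4* and *Timp3* had lower and *Timp1* higher signals in Met-high cells, with gaps of 5.16, 2.72 and 2.41 on the log2 scale, and *Mmp9* was at the background on all arrays. Levels of different probes are not comparable.

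The sequences around the starts of these 3 *Timp* genes are shown because the genes differed most between the populations and in both directions. They are RefSeq promoter windows of 300 bases in build GRCm38.p6 around the start, written 5′ to 3′ on the strand of the gene, with matches to the searched motifs in capitals. The *Timp4* window is chr6:115252156-115252455 on the minus strand, that of *Timp3* chr10:86300162-86300461 on the plus strand, and that of *Timp1* chrX:20869916-20870215 on the plus strand.
Timp4: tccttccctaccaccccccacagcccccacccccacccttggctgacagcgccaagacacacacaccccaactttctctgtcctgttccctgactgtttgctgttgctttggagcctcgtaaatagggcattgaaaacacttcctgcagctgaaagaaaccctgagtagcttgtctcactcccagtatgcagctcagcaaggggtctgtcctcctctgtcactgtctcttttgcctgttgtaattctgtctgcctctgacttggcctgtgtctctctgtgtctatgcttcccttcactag
Timp3: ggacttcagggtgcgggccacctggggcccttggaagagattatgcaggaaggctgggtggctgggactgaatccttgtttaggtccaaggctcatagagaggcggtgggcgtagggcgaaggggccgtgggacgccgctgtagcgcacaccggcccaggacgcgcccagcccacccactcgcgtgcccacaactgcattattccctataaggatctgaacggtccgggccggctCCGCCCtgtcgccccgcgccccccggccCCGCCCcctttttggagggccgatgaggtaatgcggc
Timp1: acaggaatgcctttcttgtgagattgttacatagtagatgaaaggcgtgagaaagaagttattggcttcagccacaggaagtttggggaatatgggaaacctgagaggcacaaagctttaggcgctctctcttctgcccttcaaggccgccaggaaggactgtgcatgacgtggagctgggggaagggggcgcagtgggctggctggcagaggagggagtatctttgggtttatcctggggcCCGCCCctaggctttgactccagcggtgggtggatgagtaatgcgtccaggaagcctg

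A set of 5 motifs was searched on both strands, an AP-1 site (TGACTCA), an M-box (TCATGTG), the E-box CACGTG, a GC box (GGGCGG) and a TATA box (TATAAA). Matches in these windows were GC boxes alone, 2 in *Timp3*, 1 in *Timp1* and 0 in *Timp4*. Windows were at hand for 7 of the 10 genes, and 6 of them held a GC box, which 35.7% of 32851 promoter windows hold. The AP-1 letters occurred in 0 of the 7 and in 5.2% of all windows, the M-box letters in 0 and 3.77%, CACGTG in 0 and 7.15%, and TATAAA in 0 and 13.6%. The *Timp4* window had 53.3% G and C, that of *Timp1* 55.0% and that of *Timp3* 67.0%, with a median of 52.7% over all windows. A match describes the letters of a window, and binding was not measured.

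Each of these 3 genes lies inside the span of a synapsin gene in the RefSeq table, *Timp1* in *Syn1*, *Timp3* in *Syn3* and *Timp4* in *Syn2*. Synapsins are coat proteins of synaptic vesicles. Neither *Syn1* nor *Syn3* had an array well above background, at intensities of 7.39 to 15.8 for *Syn1* and of 6.45 to 30.8 over the probes of *Syn3*. *Syn2* was above background, and its brighter probe (NM_001111015) had intensities of 107.9 and 156.5 in the Met-low replicates, against 57.0 and 81.9 in the Met-high replicates. Its log2 signal was -3.11 ± 0.03 in Met-low cells against -3.84 ± 0.11 in Met-high cells (SD, n = 2 each), and the log2 ratio was -0.73 with a standard error of 0.16 (limma, Benjamini-Hochberg adjusted p = 0.0649 over all genes), and -0.34 after normexp. The second *Syn2* probe (NM_013681), at 51.8 and 69.8 in Met-low and at 6.90 and 8.21 in Met-high cells, was at background on both Met-high arrays and its Met-low signal was at least 1.84-fold higher. For that bound, each Met-high array took the lowest signal of any probe well above background, or the signal of this probe where that was higher. Over 15 other settings the adjusted p of *Syn2* lay between 0.0103, with the mean of its probes, and 0.258, without a filter on dim probes, and 3 of these were under 0.05 for the brighter probe or the mean of probes. With every probe fitted by itself, the second probe passed (adjusted p = 0.00993) and the brighter one did not (adjusted p = 0.0825), the former against Met-high signals at background. Both *Syn2* probes had the higher mean in Met-low cells, as *Timp4* did.

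**Figure D2:**
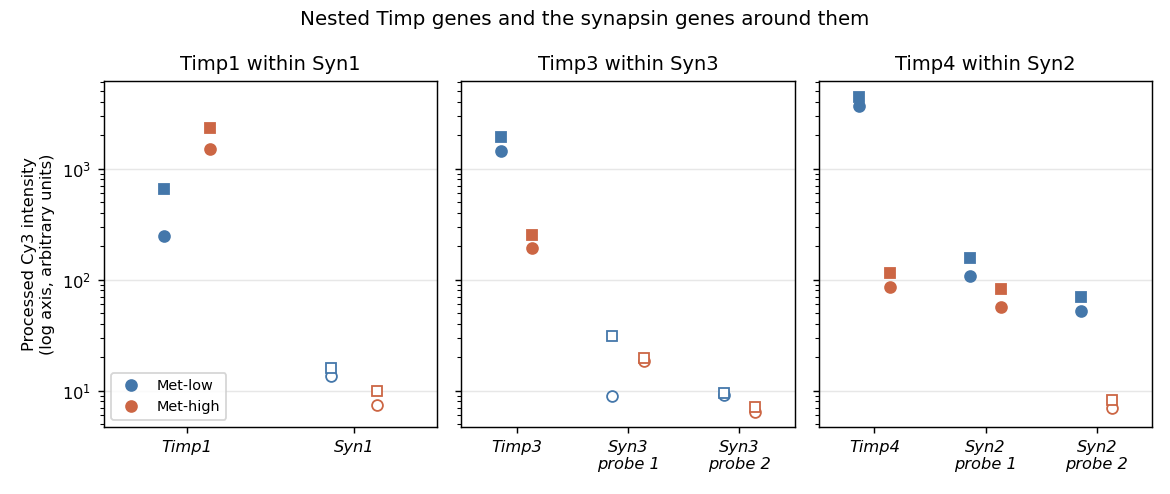
Processed Cy3 intensity on a log axis (arbitrary units, before scaling between arrays) of *Timp1*, *Timp3* and *Timp4* and of the probes of the synapsin gene around each, in Met-low (blue) and Met-high (orange) cells, with replicate 1 as a circle, replicate 2 as a square, and open symbols where the probe was not well above background. *Syn1* and *Syn3* stayed at or below 30.8, and both *Syn2* probes were lower on both Met-high arrays. Levels of different probes are not comparable.

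*Reck* (NM_016678), a membrane-anchored protein that restrains MMP2, MMP9 and MMP14 and acts as a Wnt7 co-receptor, gave different pictures on its 2 probes. The brighter probe had intensities of 147.3 and 169.8 in Met-low and of 326.0 and 182.6 in Met-high cells. Met-high replicate 1 stood far above the other 3 arrays, and after scaling both Met-high arrays exceeded both Met-low arrays, but the log2 signal was -2.82 ± 0.21 (SD, n = 2) against -2.0 ± 0.85 (SD, n = 2). The log2 ratio of that probe was 0.82 (standard error 0.41), and it was 0.22 without Met-high replicate 1 and 1.43 without Met-high replicate 2. The dimmer *Reck* probe, at 123.4 and 64.4 in Met-low and at 125.6 and 55.9 in Met-high cells, had overlapping arrays, with replicate 1 above replicate 2 in both populations. Its log2 ratio was 0.11, and it was -0.04 with the 75th percentile taken over probes detected on all arrays, so that probe gave no stable direction.

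*Mmp2* (NM_008610) encodes a secreted gelatinase that cleaves type IV collagen of basement membranes. Its intensity was 325.2 and 371.3 in the Met-low replicates, against 129.3 and 190.0 in the Met-high replicates, so both Met-low arrays were higher. The log2 signal of *Mmp2* was -1.69 ± 0.22 in Met-low cells against -2.64 ± 0.13 in Met-high cells (SD, n = 2 each), and the log2 ratio was -0.95 (standard error 0.19), or 1.93-fold. With normexp it was -0.66, and with the 75th percentile over detected probes -1.10.

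*Mmp9* (NM_013599), the other gelatinase, is spotted 10 times on each array. Over spots that were not flagged, its intensity was 9.32 ± 1.18 (SD over 9 spots) and 11.8 ± 3.62 (SD over 10 spots) on the Met-low arrays. On the Met-high arrays it was 6.94 ± 0.961 (SD over 10 spots) and 7.77 ± 0.996 (SD over 8 spots). None of these spots was well above background, and the dimmest probes that were lay between 27.6 and 41.4 on the 4 arrays. A single *Mmp9* spot of Met-high replicate 2 read 85.5 and was flagged as an outlier. *Mmp9* was thus not detectable in either population at this sensitivity, and no ratio is given.

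*Mmp14* (NM_008608), the membrane-type enzyme that activates the MMP2 precursor, overlapped between the populations. Its intensity was 1798 and 1442 in the Met-low replicates, against 1113 and 721.4 in the Met-high replicates. After scaling, the Met-low arrays read 0.93 and 0.12 and Met-high replicate 1 lay inside that range at 0.37, while Met-high replicate 2 was lowest at -0.62. The log2 ratio of *Mmp14* was -0.65 (standard error 0.42), -1.15 without Met-high replicate 1 and -0.15 without Met-high replicate 2. *Mmp15* (NM_008609), a second membrane-type enzyme, had intensities of 326.2 and 237.5 in Met-low and of 122.1 and 121.6 in Met-high cells. The populations did not overlap, at log2 signals of -2.01 ± 0.68 (SD, n = 2) and -3.0 ± 0.27 (SD, n = 2). The log2 ratio of *Mmp15* was -0.99 (standard error 0.35), or 1.99-fold, and it was -0.52 without Met-low replicate 1 and -1.47 without Met-low replicate 2.

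*Bsg* (NM_009768) encodes basigin, also called EMMPRIN, a glycoprotein that induces metalloproteinases in neighbouring cells and escorts lactate transporters to the membrane. Its intensity was 8171 and 14265 in the Met-low replicates, against 9555 and 14757 in the Met-high replicates. These raw intensities overlapped and the scaled signals did not, at 3.27 ± 0.22 in Met-low cells against 3.60 ± 0.18 in Met-high cells (SD, n = 2 each). For *Bsg* the log2 ratio was 0.33 (standard error 0.19), 0.17 after quantile normalization and 0.21 without Met-high replicate 2, beside a median of 0.10 over all genes.

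Across the 9 genes that passed the filter, the mean was over 2-fold higher in Met-low cells for 2 (*Timp3*, *Timp4*) and over 2-fold higher in Met-high cells for 1 (*Timp1*), against 5.32% and 2.45% of all 11963 genes. Nothing is read from the counts of the 9 genes, since the genes were chosen with the differences known. On the brightest probe of each gene, the Met-low replicates all exceeded the Met-high replicates in 4 of the 9 (*Timp3*, *Timp4*, *Mmp2*, *Mmp15*), as in 22.6% of all genes. The reverse held in 4 (*Timp1*, *Timp2*, *Reck*, *Bsg*), as in 35.8%. For *Timp2* it rests on 1 Met-low array, with the flagged spot left out, though its dimmer probe also had no overlap. The dimmer *Reck* probe had overlapping arrays. With the 75th percentile over detected probes, *Mmp2* at -1.10 and *Mmp15* at -1.14 were also beyond 2-fold. The smallest log2 ratio beyond a 2-fold difference was that of *Timp1* at 2.41, or 5.32-fold, and the largest short of it was that of *Mmp15* at -0.99, or 1.99-fold. The enzyme genes *Mmp2*, *Mmp14* and *Mmp15* had a lower mean in Met-high cells, with log2 ratios from -0.99 to -0.65 and with overlapping arrays for *Mmp14*. Outside the chosen genes, *Mmp11* had a ratio of -1.25 and *Mmp17* of 0.49, so no direction is read for the enzymes as a group. The inhibitors were split, with *Timp4* and *Timp3* lower, *Timp1* higher and *Timp2* and *Reck* with ratios of 0.35 and 0.82 on their brighter probes. Without Met-high replicate 2, the log2 ratio was -5.19 for *Timp4*, -2.74 for *Timp3*, 2.28 for *Timp1*, -1.04 for *Mmp2*, -0.80 for *Mmp15* and -0.15 for *Mmp14*.

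**Figure D3:**
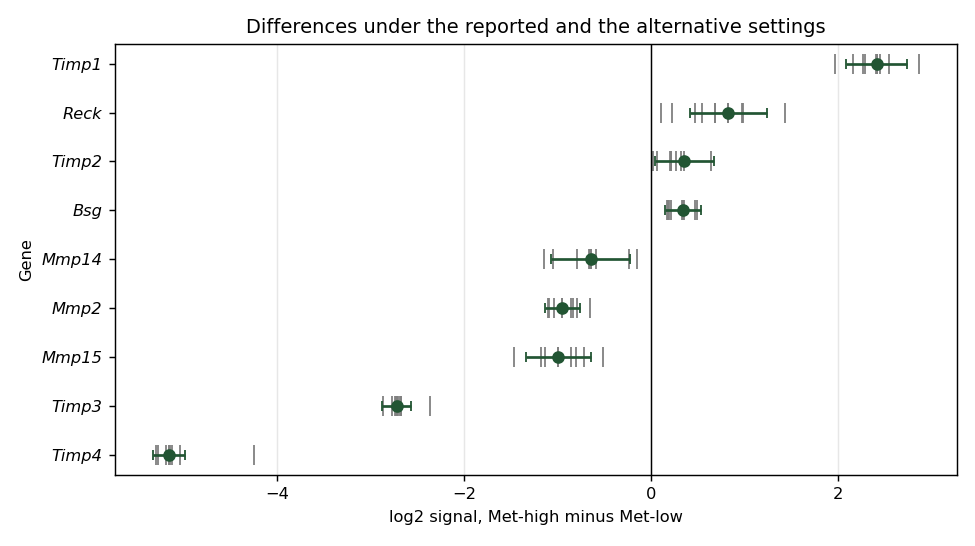
Log2 signal in Met-high minus Met-low cells (horizontal axis) of the 9 genes that passed the filter, with the standard error from limma as a bar and the value under each alternative setting or array left out as a grey tick. The ticks of *Timp4* ran from -5.30 to -4.25 and those of *Timp1* from 1.96 to 2.86. The ticks of *Timp2* came closest to 0, at 0.009, followed by those of *Reck* at 0.11, *Mmp14* at -0.15 and *Bsg* at 0.17.

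For the 3 genes beyond 2-fold, the genes with the most similar pattern were sought among 11946 genes, by the Euclidean distance over the 4 arrays between log2 signals centred on the mean of each gene. Near to *Timp4* was *Ptgir*, a prostacyclin receptor (distance 0.49), and the rule also gave *Zfp40* and *Rbms3*. For *Timp3* it gave *Cbfa2t3* and *Znf41-ps*. These last 4 genes had no Met-high array well above background, so their Met-high signals are bounds and no distance is given for them. Nearest to *Timp1* were *Pdpn*, which encodes the membrane glycoprotein podoplanin (0.06), *Slc44a3* (0.14) and *Flywch2* (0.16), with log2 ratios of 2.45, 2.38 and 2.54 and well above background on all arrays. A distance over 4 arrays rests on few values.

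Other genes of the same system were compared from lists drawn up by known role, and the 3 synapsin genes were listed with them for their position. Together the lists hold 88 genes, 87 of them with a probe and 36 past the filter, *Syn2* among the 36. In limma, 2 of the 36 were higher in Met-low cells at an adjusted p under 0.05, *Mmp11* and *Adam19*, against 3.84% of all genes, and 0 were higher in Met-high cells, against 1.95%. Of the calls over all genes 66.3% were higher in Met-low cells, a share of 80.9% under scaling to the 75th percentile of detected probes. At an unadjusted p under 0.05 there were 9 of the 36 higher in Met-low cells, *Syn2* among them, and 1 higher in Met-high cells, against 11.9% and 14.3% of all genes. The median log2 ratio of the 36 was -0.08, beside 0.10 over all genes, with 20 ratios below and 16 above 0, and with 25 below and 11 above 0 under scaling to the 75th percentile of detected probes.

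Of 19 other metalloproteinase genes, 18 had a probe, 14 were well above background on no array, and only *Mmp11* and *Mmp17* passed the filter. *Mmp11* (NM_008606), stromelysin 3, was dimmer in Met-high cells, at intensities of 50.7 and 63.2, than in Met-low cells, at 145.5 and 164.2. On the log2 scale the ratio was -1.25 (limma, standard error 0.18, adjusted p = 0.0259), and a second probe, at background on both Met-high arrays, had a Met-low signal at least 1.92-fold higher, by the bound described for *Syn2*. With every probe fitted by itself, the brighter *Mmp11* probe passed (limma, adjusted p = 0.0386) and the second one did not (limma, adjusted p = 0.0837). The adjusted p of *Mmp11* was 0.0587 on leaving out Met-low replicate 1, 0.0348 on leaving out Met-high replicate 2 and 0.101 with normexp, where the ratio was -0.63, in a range of 0.00836 to 0.138 over 15 other settings. *Mmp17*, a glycosylphosphatidylinositol-anchored enzyme, had a log2 ratio of 0.49 (adjusted p = 0.248), or 0.21 without Met-high replicate 2.

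Of 12 *Adam* genes, which encode membrane-bound sheddases and adhesion proteins, 10 passed the filter, 4 with a ratio below and 6 above 0, or 6 below and 4 above with the 75th percentile over detected probes. *Adam19* (NM_009616), a sheddase of neuregulins, had intensities of 148.5 and 266.8 in Met-low and of 76.6 and 80.9 in Met-high cells, a log2 difference of -1.14 (limma, standard error 0.21, adjusted p = 0.0431). The *Adam19* call was lost without Met-low replicate 2 (ratio -0.97), without Met-high replicate 2 (ratio -0.99) and with normexp (ratio -0.68, adjusted p = 0.0739). It was also lost with quantile normalization (adjusted p = 0.0525), every probe fitted by itself (0.0593), a mean-variance trend (0.0504) and no filter on dim probes (0.187). The call held in 8 of 15 other settings, and the adjusted p ranged from 0.0204 to 0.187. Of the next largest ratios, *Adam8* had -0.49 (adjusted p = 0.321) and *Adam11* 0.46 (adjusted p = 0.147). The main sheddases *Adam10* and *Adam17* had log2 ratios of -0.32 (adjusted p = 0.424) and -0.13 (adjusted p = 0.619), the latter with a changed sign after normexp (0.01) and quantile normalization (0.04). A second, dimmer *Adam17* probe had intensities of 55.9 and 66.8 in Met-low and of 35.6 and 36.7 in Met-high cells. It was well above background on the Met-low arrays only, with a log2 ratio of -0.56. Without Met-high replicate 2 the ratios were -0.18 for *Adam8* and -0.12 for *Adam10*. *Adam10* and *Adam17* are known to release receptor ectodomains, Met among them.

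Of 19 *Adamts* genes, 3 passed the filter and 0 were called by limma, also at an unadjusted p under 0.05. *Adamts1*, a proteoglycan-cleaving enzyme, had a log2 ratio of -0.83 (adjusted p = 0.322), *Adamts4* -0.34 (adjusted p = 0.461) and *Adamts14* -0.24 (adjusted p = 0.451), with overlapping arrays in all 3. A second, dimmer *Adamts14* probe, well above background on the Met-high arrays only, had a ratio of 0.23, also with overlapping arrays. Without Met-high replicate 1, *Adamts1* was called higher in Met-low cells at a log2 ratio of -1.48 (adjusted p = 0.0253), and without Met-high replicate 2 the ratios were -0.17 for *Adamts1*, -0.12 for *Adamts4* and -0.11 for *Adamts14*.

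Among 17 activating proteases and serpins, 8 passed the filter and 0 were called by limma, with 3 higher in Met-low cells at an unadjusted p under 0.05, beside 11.9% of all genes. *Serpine2* (NM_009255), protease nexin 1, which blocks thrombin and plasminogen activators, had a signal near background in Met-high cells. Its intensity was 269.9 and 271.7 in the Met-low replicates, against 31.1 and 6.87 in the Met-high replicates, of which only Met-high replicate 1 was well above background. The log2 ratio of *Serpine2* was -4.01 (limma, standard error 0.81, adjusted p = 0.0558), a size that rests in part on the Met-high array at background. With Met-high replicate 1, the array above background, as the only Met-high array, it was -2.74 (adjusted p = 0.00109), and after normexp it was -1.82 (adjusted p = 0.0218). Its adjusted p was under 0.05 in 7 of 14 other settings, of which the one without Met-high replicate 1 compares Met-low cells with background alone, and reached 0.21 without a filter on dim probes. *Plat*, tissue plasminogen activator, had a log2 ratio of -0.55 (adjusted p = 0.15), *Ctsl*, a lysosomal protease, -0.50 (adjusted p = 0.187), and *Furin*, the convertase that activates MMP14, 0.42 (adjusted p = 0.279).

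Among 18 binding partners and other inhibitors, 12 passed the filter and 0 were called by limma, with 3 higher in Met-low cells at an unadjusted p under 0.05, beside 11.9% of all genes. *Spock1*, a matrix proteoglycan, had a log2 ratio of -1.07 (adjusted p = 0.113) with 1 of the 2 Met-high arrays above the background threshold, and on that array alone the ratio was -0.64 (adjusted p = 0.228). Its call without Met-high replicate 1 compares Met-low cells with background alone. *Thbs1*, which encodes thrombospondin 1, an inhibitor of vessel growth that binds metalloproteinases, had -1.03 (adjusted p = 0.0844), and *Lrp1*, the endocytic receptor that clears MMPs and TIMP complexes, -0.67 (adjusted p = 0.104). *Thbs1* was called without Met-low replicate 2 (ratio -1.34, adjusted p = 0.028), and after normexp the ratios were -0.27 for *Spock1*, -0.60 for *Thbs1* and -0.29 for *Lrp1*. The partners of basigin had small ratios, 0.18 for the lactate transporter gene *Slc16a1*, -0.06 for *Slc16a3* and 0.21 for *Ppia*, its cyclophilin ligand, and quantile normalization turned that of *Slc16a3* to 0.08, while leaving out Met-high replicate 2 turned that of *Slc16a1* to -0.09.

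**Figure D4:**
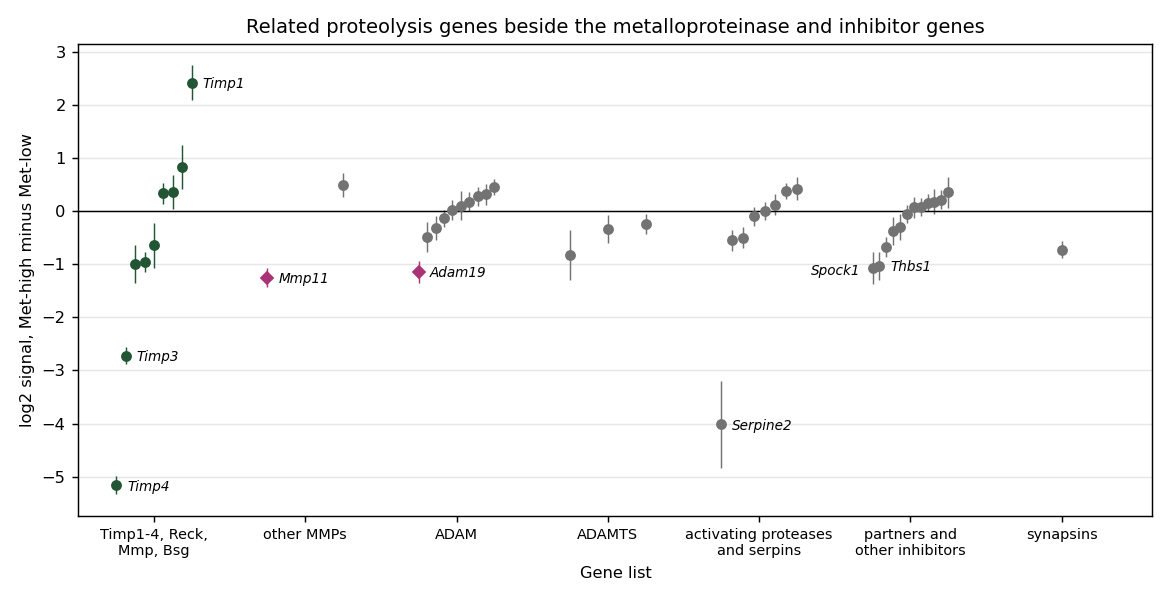
Log2 signal in Met-high minus Met-low cells (vertical axis) of the genes of each list that passed the filter (horizontal axis), as the brightest probe of each gene with the standard error from limma. Green points are the 9 genes described first, which are given without a test, purple diamonds are genes at an adjusted p under 0.05 (*Mmp11* and *Adam19*) and grey points are the others. Genes beyond 2-fold are named, and *Serpine2*, at -4.01, has the longest error bar, 0.81 on either side.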

How the data were processed

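The authors deposited the Feature Extraction output of 4 1-colour (Cy3) arrays, with a background-corrected intensity on a linear scale and flags for each spot, and a table of their own log2 values, scaled to the 75th percentile of each array and centred on the median of each probe. The labels name Feature Extraction 10.7.3.1 and the file headers 11.0.1.1, with mm9 as the genome build of the array grid. The deposited intensity was floored at 0.01, divided by the 75th percentile of the non-control spots of its array and taken to log2, without flagged spots and with spots of a probe averaged. Probes were named through their accession in the RefSeq table of GRCm38.p6 (27427 of 39429 matched, 20832 genes). The brightest probe stood for a gene, and every probe of the 10 genes is given. Genes with both replicates of at least 1 population well above background were fitted in R 4.3.3 (limma 3.58.1, lmFit and eBayes), 2 arrays against 2, without covariates, with Benjamini-Hochberg adjustment over all 11963 genes. Tests are two-sided, and the methods describe the samples as independently prepared. The members and lists were chosen with earlier results of these data known, and some genes that the lists and rules gave are not reported here. Named from the lists were genes at an adjusted p under 0.05, the synapsins, up to 3 further genes a list by size of the ratio, and, chosen after their values were seen, *Adam17*, *Furin* and the partners of basigin. On simulated arrays of 11963 genes, the fit recovered 85.9% of changes of 2 and 97.0% of changes of 3 on the log2 scale, with 10 unchanged genes called. Errors were simulated as independent between arrays, unlike the shared deviations of same-numbered samples given below. Smaller changes were not simulated, so these shares do not describe ratios of the size of *Mmp11* and *Adam19*. Alternatives were normexp (offset 50, median intensities), quantile normalization, the percentile over detected probes, other filters, flagged spots kept, other probe rules, the authors' log2 values, each array left out, a block for the replicate number, eBayes with a mean-variance trend, and a 2-fold threshold.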

Additional observations from a re-analysis of the deposited data

How the results depend on the processing

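Over all genes, limma called 459 genes higher in Met-low and 233 higher in Met-high cells. These became 7 and 0 without a filter on dim probes (1463 and 1197 at an unadjusted p under 0.05), and 1578 and 1974 with the replicate number as a block. Samples of the same number deviated together (r = 0.539 over genes, the same for both pairs by construction), but with 2 pairs and no label that ties the numbers to a shared batch this is a hint from the data only. The calls higher in Met-high cells were 141 with the percentile over detected probes and 392 with a mean-variance trend. The share of calls higher in Met-low cells was 66.3%, and 80.9% with the percentile over detected probes, where all genes together had a median log2 ratio of -0.05 in place of 0.10. Of the related genes, with *Syn2* counted among them, 2 were called higher in Met-low cells, *Mmp11* and *Adam19*. The count was 1 with normexp, 1 after quantile normalization, 0 without a filter on dim probes (9 at an unadjusted p under 0.05), 10 with the replicate block and 5 by a 2-fold threshold without a test, and it ran from 2 to 5 with each array left out, highest without Met-high replicate 1, where *Serpine2* and *Spock1* are compared with background alone. The genes behind these counts changed, since the 1 call with normexp was *Serpine2* and the 1 after quantile normalization was *Mmp11*. *Syn2* was among the 10 with the replicate block. The count higher in Met-high cells was 0, and 1 with the replicate block. The log2 ratios of the 9 measured genes and of *Syn2* kept their direction in all 111 alternative values, 100 of them within 1 SD of the replicates and 11 beyond it. The count within 1 SD does not measure stability. With 2 arrays a population, leaving out an array cannot move a ratio by more than that pooled SD. The replicate block returned the same ratios, as some other settings did for many genes. The dimmer *Reck* probe, not among these values under other scalings, turned from 0.11 to -0.04 with the percentile over detected probes. Where an array was left out, the lone array of a population was assumed to vary like the others. The cause of these shifts was not tested. Dim signals limit the ratios of *Timp4*, *Serpine2*, *Mmp11* and *Adam19* in Met-high cells and leave *Mmp9* without one. With normexp the log2 ratio was -0.63 for *Mmp11* and -0.68 for *Adam19*, and neither was called.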
